A study of Caenorhabditis elegans with 6 samples.

Results

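The genes described here are the long intervening noncoding RNA (lincRNA) genes of Caenorhabditis elegans, chosen as every gene with a value whose name begins with linc-. There were 170 of them among the 45729 genes with values. RNA was sequenced from whole worms of N2, the standard laboratory strain, given D-mannose (3 libraries) or water (3 libraries). All worms carried the wild-type N2 background, fed on Escherichia coli OP50 and were harvested at an age of 6 days, and the labels give no difference between the groups other than the treatment and no dose of the sugar. The values are FPKM, which are fragments scaled to gene length and to an effective library size. Nothing in the labels says that the replicates came from separate cultures, so p-values measure the spread between these libraries.

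LincRNAs are transcribed by RNA polymerase II from stretches between protein-coding genes, and many are capped, spliced and polyadenylated like messenger RNAs. They encode no recognised protein, are often present at low levels, and are often made in particular stages or tissues. The role of most worm lincRNAs is not known, and in bulk RNA from whole animals fewer cells of a type and less RNA per cell cannot be told apart. The 170 names match the annotation of the WBcel235 build closely: all 170 have the same position in the Ensembl annotation, where 169 are classed as lincRNA and linc-171 as ncRNA. Of the 170, 54 have 1 exon, 89 have 2 and 27 have 3 or more. Their exonic lengths ran from 101 bases in linc-98 to 4183 bases in linc-156, with a median of 452.5 bases.

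Most lincRNA genes were detected at a few reads or not at all in worms of this age. A value above 0 was found for 122 of the 170 genes in at least 1 library and for 45 in all 6 libraries. The other 48 were listed at 0 throughout. A 0 allows up to 3 reads, and reads without molecular identifiers are not independent molecules, so such limits cover counting error only. The number detected was 78, 74 and 84 in the 3 mannose libraries, against 80, 83 and 74 in the 3 water libraries. The groups overlapped fully, with means of 78.7 ± 5.03 in mannose and 79 ± 4.58 in water (SD, n = 3 each; two-sided exact permutation test, p = 1, where the smallest possible p is 0.1).

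**Figure D1:**
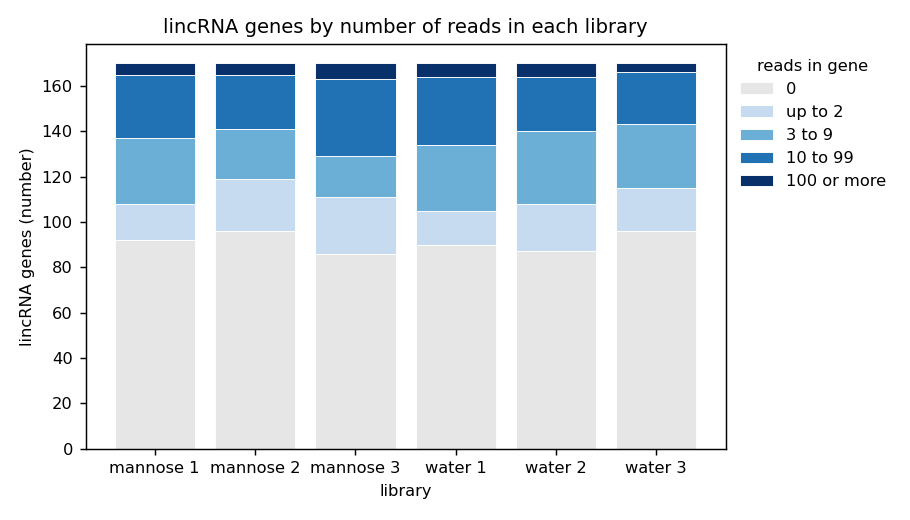
Number of lincRNA genes (y axis) with 0 reads, up to 2, 3 to 9, 10 to 99, and 100 or more reads in each of the 3 mannose and 3 water libraries (x axis). The grey part, genes with 0 reads, holds 86 to 96 of the 170 genes in each library, and 4 to 7 genes reach 100 reads.

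Detection was compared with that of other gene classes measured in the same libraries. Among 19950 protein-coding genes, 89.0% had a value above 0 in at least 1 library and 71.8% in all 6, against 71.8% and 26.5% of lincRNA genes. Over all 45729 genes with values, whose median length was 155 bases, the shares were 47.6% and 34.1%. The antisense RNA genes named anr, another class of long noncoding transcripts, resembled the lincRNA genes in this: 43 of 57 were detected in at least 1 library and 17 in all 6. The median level of the detected genes, averaged over the 6 libraries, was 0.115 FPKM for lincRNA genes, 0.105 FPKM for anr genes and 2.43 FPKM for protein-coding genes. Among the lincRNA genes, 5 averaged at least 10 FPKM, 13 averaged 1 to 10 FPKM, 44 averaged 0.1 to 1 FPKM and 60 lay above 0 but under 0.1 FPKM. The classes differ in length, with a median of 1208 bases for protein-coding genes, and a longer gene collects more reads at the same FPKM.

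**Figure D2:**
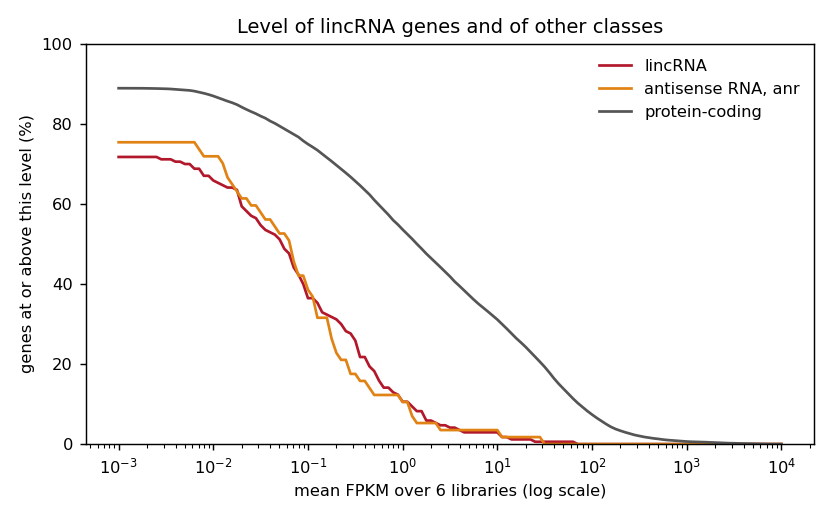
Share of genes in percent (y axis) whose mean FPKM over the 6 libraries is at or above the level on the x axis (log scale), for the 170 lincRNA genes, the 57 anr antisense RNA genes and the 19950 protein-coding genes. The lincRNA and anr curves lie close together and well below the protein-coding curve.

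Detection varied with the setting of the gene. LincRNA genes were detected in at least 1 library in 29 of 34 cases on chromosome II but in 19 of 33 on chromosome V, with 16 of 22 on I, 16 of 22 on III, 19 of 26 on IV and 23 of 33 on X. The protein-coding gene nearest to a lincRNA gene lay at a median of 350 bases from the 122 detected members and 738.5 bases from the 48 members listed at 0. Members whose span overlaps a coding gene, on either strand, are included with a distance of 0. The nearest coding gene had a median of 2.32 FPKM beside detected members and 0.804 FPKM beside the members listed at 0. Length did not separate detected members in that direction, with a median of 465 bases for the 45 genes found in all 6 libraries and 544.5 bases for the 48 listed at 0. These are descriptions of where reads were found, and no test was made.

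Reads can be shared where gene models overlap. The span of 38 lincRNA genes overlapped another model with reads on the same strand, and 32 of these 38 (84.2%) were detected, against 90 of the 132 others (68.2%). The span of 27 overlapped a model with reads on the other strand. The sources used here do not give the strand setting of the counting, so reads of such antisense partners cannot be told apart. Among the better expressed members described below, linc-6 and linc-2 share exonic bases with another model on their strand.

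A few genes held most lincRNA reads. All lincRNA genes together took 0.00613%, 0.00685% and 0.00922% of the reads in the mannose libraries, against 0.0109%, 0.00872% and 0.00628% in the water libraries. The groups overlapped, with means of 0.00740 ± 0.00162% in mannose and 0.00862 ± 0.00229% in water (SD, n = 3 each; two-sided exact permutation test, p = 0.6). The gene linc-7 alone held 33.1% of these reads, the top 3 genes 60.4% and the top 5 genes 71.4%. Levels of the 45 genes found in all 6 libraries had Spearman correlations, across genes, of 0.746 to 0.862 between libraries of a group and 0.743 to 0.901 between groups, and genes are not independent replicates.

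The most abundant lincRNA was linc-6 (F52D2.13; WBcel235, X:1982710-1982883, minus strand, a single exon). It had 42.7, 57.1 and 66.5 FPKM in mannose against 107.8, 80.0 and 67.6 FPKM in water. All 3 mannose libraries lay below all 3 water libraries, although mannose 3 and water 3 differed by little. On the log2 scale the difference was −0.61 (standard error 0.24), and the gene stayed outside the threshold (limma adjusted p = 0.9999). Its exon shares bases with F52D2.14, an ncRNA gene on the same strand, and lies within the span of the protein-coding gene F52D2.6 on the other. F52D2.14 had 20.6, 26.6 and 30.8 FPKM in mannose against 66.1, 35.6 and 32.7 FPKM in water. The overlapping models thus showed the same order of groups, and how reads were divided between them was not tested. F52D2.6 was near 0, with 0.0635 to 0.150 FPKM in mannose and 0.0366 to 0.0766 FPKM in water.

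The second most abundant, linc-7 (T22E6.2; X:16002599-16003728, plus strand, 1 exon), was the gene with the most reads. It had 21.5, 15.9 and 22.5 FPKM in mannose against 30.7, 24.0 and 23.2 FPKM in water, from 747 to 1253 reads in mannose and 1013 to 1679 reads in water. The groups did not overlap, but the gap between mannose 3 and water 3 was small, and the log2 difference of −0.37 (standard error 0.20) did not pass (limma adjusted p = 0.9999). The gene lies within the span of C09G1.4 on the other strand, without touching its exons, and C09G1.4 had 0.681 to 1.02 FPKM in mannose and 0.732 to 1.34 FPKM in water.

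The other 3 genes above 10 FPKM showed little difference between the groups. For linc-9 (F21A9.3; I:3703542-3704956, plus strand, 4 exons) the values were 10.6, 12.6 and 14.9 FPKM in mannose against 14.6, 14.3 and 10.97 FPKM in water. For linc-4 (F13H8.15; II:6268939-6269516, plus strand, 2 exons) they were 8.90, 11.1 and 10.7 FPKM in mannose against 11.7, 11.1 and 9.83 FPKM in water. For linc-8 (F59H5.6; II:2501838-2503802, minus strand, 5 exons) they were 9.53, 9.92 and 10.8 FPKM in mannose against 11.9, 10.6 and 9.35 FPKM in water. The groups overlapped in each case, and mannose 1 and water 3 were the lowest of their groups for all 3 genes. The 95% interval of the log2 difference ran from −0.53 to 0.40 for linc-9, from −0.46 to 0.30 for linc-4 and from −0.44 to 0.30 for linc-8, so each excluded a 2-fold difference in either direction.

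**Figure D3:**
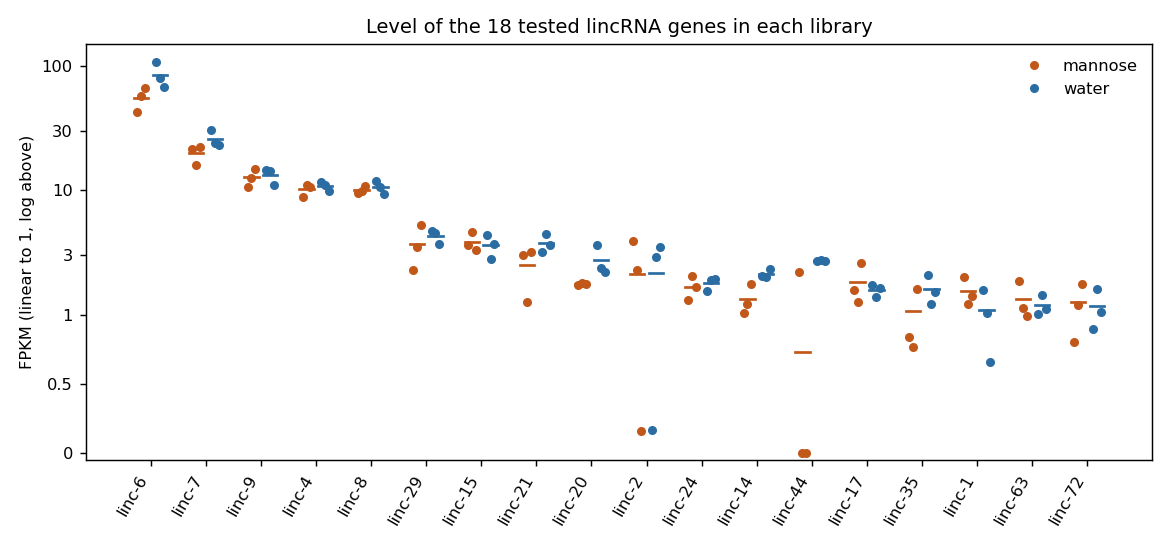
FPKM (y axis, linear up to 1 and logarithmic above) of the 18 lincRNA genes that entered the test, ordered by mean level on the x axis, with a point for each mannose library (orange, left) and water library (blue, right) and a bar for each group mean. The 5 genes at the left average above 10 FPKM, linc-2 is split within both groups, and linc-44 is at 0 in 2 mannose libraries.

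Whether lincRNA levels differed in worms given the sugar was asked next. Genes that reached 1 FPKM in 3 or more libraries were tested with limma on log2(FPKM + 1), 11237 in all, and 18 lincRNA genes entered. The remaining members were too low for this test. None of the 18 passed an adjusted p of 0.05, nor did any other gene, so 0% of all tested genes were called. At an unadjusted p under 0.05 there were 4 of 18 lincRNA genes (linc-6, linc-14, linc-20 and linc-44), all lower in mannose, against 4.73% of all tested genes in either direction, 2.04% higher and 2.7% lower. That count was 1 of 19 with upper-quartile or total-read scaling, 2 of 18 with limma-voom on reads or the replicate number as a block, and 0 to 3 of 18 when single libraries were left out, with 0 without mannose 2 and 0 without water 1. The groups did not overlap in 5 of 18, also all lower in mannose, against 10.7% of tested genes in either direction, 5.42% higher and 5.31% lower. A member enters this test partly through the group where it is higher, so these counts over the 18 are a description only.

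Of the 18, 13 had lower means on the log2 scale in mannose and 5 had higher ones, whereas 45.5% of all tested genes were lower. Their median log2 difference was −0.077, beside 0.015 for all tested genes. With no filter, over all 122 detected members, it was −0.0078, with 65 lower and 57 higher. Of all genes in that fit, 47.8% were lower. With upper-quartile or total-read scaling 13 of 19 were lower, where 54.6% and 41.4% of all tested genes were lower. Without mannose 1 and water 3 the count was again 13 of 18, beside 42.9% of all tested genes. The median shifted with single libraries. It was −0.18 without mannose 2, −0.15 without mannose 3, −0.16 without water 1 and −0.17 without water 3. Leaving out mannose 1 gave −0.057, and leaving out water 2 gave −0.065. Without mannose 1, 10 of 18 were lower, beside 51.1% of all tested genes. For 14 of the 18 the 95% interval excluded a 2-fold difference on this scale, and for linc-2, linc-6, linc-21 and linc-44 it did not. On the log2(FPKM + 0.1) scale, which shrinks low genes less, 9 of the 18 intervals excluded it, and those of linc-1, linc-14, linc-20, linc-29 and linc-35 reached past it too.

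**Figure D4:**
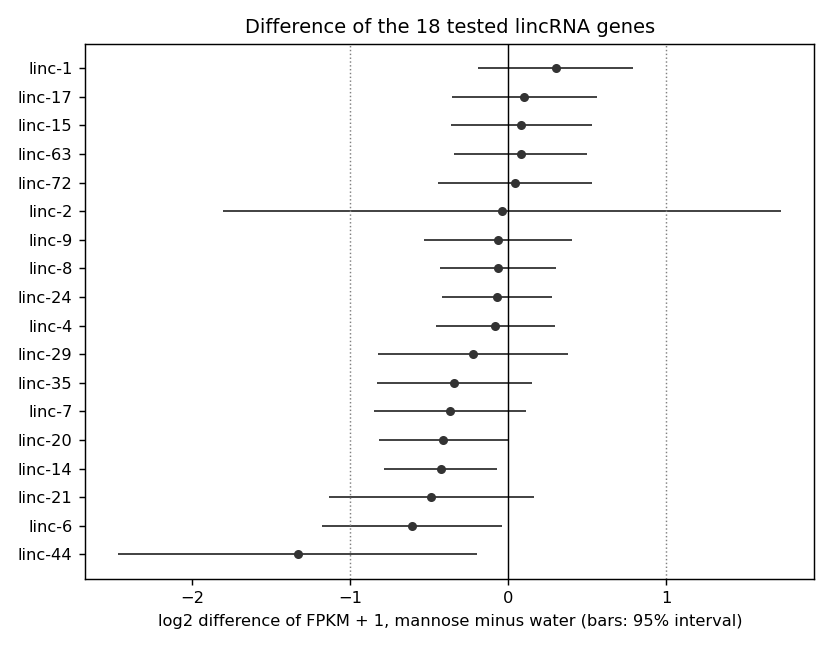
Log2 difference of FPKM + 1, mannose minus water (x axis), with its 95% interval from limma, for the 18 tested lincRNA genes (y axis). Dotted lines mark a 2-fold difference, and only linc-2, linc-6, linc-21 and linc-44 have intervals that reach past it.

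The clearest split between libraries was that of linc-44 (F10C1.22; II:5781921-5782113, minus strand, 1 exon). It had 2.18, 0 and 0 FPKM in mannose against 2.68, 2.75 and 2.68 FPKM in water, which were 16, 0 and 0 reads in mannose and 25, 23 and 20 reads in water. Mannose 2 and mannose 3 thus stood apart from the other 4 libraries, while mannose 1 lay close to the water libraries. A 0 with up to 3 reads allows at most 0.373 FPKM in mannose 2 and 0.315 FPKM in mannose 3. On the log2 scale the difference was −1.33, with 0.46 as standard error (limma adjusted p = 0.9999). Without mannose 1 it was −1.89 and the gene passed (limma adjusted p = 0.037), as it did without both mannose 1 and water 3 (−1.89, limma adjusted p = 0.034). Mannose 1 was the only mannose library with reads of linc-44, so in both fits its remaining reads were in water alone. The filter was set over all 6 libraries, mannose 1 among them, and was not applied again for these fits. Both calls are thus a description only. No other gene model with reads overlaps linc-44. Its nearest coding gene, K05F1.6, lies 407 bases away on the other strand and had 0.945, 0.915 and 0.732 FPKM in mannose against 0.544, 0.618 and 0.618 FPKM in water. All mannose libraries lay above all water libraries there, so K05F1.6 did not share the low values of linc-44 in mannose 2 and mannose 3.

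Smaller differences were seen at linc-14 and linc-20. The gene linc-14 (C18D4.11; V:17539172-17539475, minus strand) had 1.03, 1.22 and 1.75 FPKM in mannose against 2.03, 1.99 and 2.34 FPKM in water, and the log2 difference was −0.43 (standard error 0.15). The gene linc-20 (T25D1.6; X:16508081-16509294, minus strand) had 1.73, 1.81 and 1.78 FPKM in mannose against 3.63, 2.39 and 2.19 FPKM in water, and the log2 difference was −0.41 (standard error 0.17). Mannose libraries lay below water libraries for both, on 10 to 28 reads per mannose library and 22 to 56 per water library. The limma adjusted p was 0.9999 for each. The coding gene nearest to linc-14, C18D4.6, had 5.15, 3.39 and 3.49 FPKM in mannose against 2.25, 2.47 and 5.16 FPKM in water, an order unlike that of linc-14.

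Other members of middle level overlapped between the groups. The gene linc-21 (F36A4.21; IV:4242086-4242466) had 3.04, 1.26 and 3.19 FPKM in mannose against 3.18, 4.43 and 3.62 FPKM in water, and mannose 2 alone was low. The gene linc-29 (Y73B6BL.269; IV:6354024-6357243) had 2.30, 3.51 and 5.25 FPKM in mannose against 4.67, 4.55 and 3.71 FPKM in water, with the highest and the lowest library both in mannose. The gene linc-35 (F22D3.10; II:6927637-6927825) had 0.836, 0.762 and 1.61 FPKM in mannose against 2.08, 1.22 and 1.51 FPKM in water, on 6 to 19 reads. None of the 3 reached an unadjusted p under 0.05. The remaining tested members, linc-17, linc-24, linc-63 and linc-72, are named after their values were seen, to account for all 18. They had 0.804 to 2.59 FPKM in mannose and 0.898 to 1.94 FPKM in water, with overlapping groups and log2 differences of −0.07 to 0.10.

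A pair of members within other genes' spans had higher means in mannose, with overlapping groups and no unadjusted p under 0.05. The gene linc-15 (C49F5.10; X:11991484-11991933) had 3.66, 4.62 and 3.30 FPKM in mannose against 4.34, 2.80 and 3.68 FPKM in water. It lies, without touching its exons, within the span of ucr-2.1 on the other strand, a gene for a core subunit of the mitochondrial cytochrome bc1 complex, which had 65.7 to 69.7 FPKM in mannose and 75.2 to 98.6 FPKM in water. The gene linc-1 (W09C5.11; I:13652524-13652727) had 2.01, 1.22 and 1.42 FPKM in mannose against 1.58, 1.03 and 0.660 FPKM in water, and the log2 difference was 0.30 (standard error 0.20). Its span lies opposite rpl-31, a gene for a protein of the large ribosomal subunit, with 842 to 1395 FPKM in mannose and 901 to 1883 FPKM in water. Water 3 had the most rpl-31 and the least linc-1, whereas mannose 1 had the second most rpl-31 and the most linc-1.

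The gene linc-2 (R144.17; III:5024881-5025007, plus strand) varied widely within both groups. It had 3.94, 2.27 and 0.159 FPKM in mannose against 0.163, 2.91 and 3.47 FPKM in water, with 1 read in mannose 3 and 1 in water 1. Its log2 difference of −0.039 had a standard error of 0.72, the largest among the 18. Its exon shares bases with the start of pcf-11, which encodes a factor of messenger RNA 3′ end cleavage and transcription termination. That gene had 34.7, 18.002 and 9.44 FPKM in mannose against 11.02, 12.97 and 35.4 FPKM in water, so mannose 3 and water 1 were the lowest libraries of their groups for both models. How far reads of pcf-11 enter linc-2 was not tested.

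To reach lower members, genes with at least 0.1 FPKM in at least 3 libraries were also tested on log2(FPKM + 0.1), which took in 60 lincRNA genes among 16589. None of the 60 passed (lowest limma adjusted p = 0.989), where 0.0241% of all genes did. An unadjusted p under 0.05 was found for 8 of 60, 3 higher and 5 lower in mannose, against 5% of all genes, 2.12% higher and 2.88% lower. The groups did not overlap in 13 of 60, 5 higher and 8 lower in mannose, against 10.5% of all genes, 5.08% higher and 5.37% lower. By sign alone 35 of 60 were lower, against 47% of all genes. The members named in the rest of this paragraph and in the 2 that follow were chosen after their values were seen. As with the 18, a member can enter through the group where it is higher, so these counts are a description only. The gene linc-27, counted among the lower and not overlapping, entered through water alone, with 0 reads in each mannose library and 1 read in each water library.

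The members with higher levels in every mannose library included linc-107 (C30G12.8; II:7287417-7287813). It had 18, 14 and 41 reads in mannose against 9, 3 and 0 in water, or 1.19, 0.846 and 2.09 FPKM in mannose against 0.469, 0.174 and 0 FPKM in water. On the log2(FPKM + 0.1) scale the difference was 2.48 (standard error 0.68). The gene linc-60 (Y41E3.462; IV:14958931-14959349) had 13, 9 and 35 reads in mannose against 9, 3 and 2 in water, and its log2 difference was 1.66 (standard error 0.52). Mannose 2 and water 1 had equal reads of linc-60 and differed only after scaling, at 0.516 and 0.444 FPKM. The coding gene Y41E3.1 lies 57 bases from linc-60 on the same strand, with 47.1 to 61.8 FPKM in mannose and 47.1 to 56.3 FPKM in water. Whether its reads enter linc-60 was not tested. The gene linc-83 (C39B10.9; X:10474214-10474902) had 10, 8 and 14 reads in mannose against 4, 5 and 4 in water, and its log2 difference was 1.01 (standard error 0.26). Mannose 3 was the highest library for all 3 genes. The longer linc-22 (F47E1.18; X:9069138-9073735, 4071 exonic bases) had 0.711, 0.572 and 0.731 FPKM in mannose against 0.472, 0.249 and 0.458 FPKM in water, from 97 to 147 reads in mannose and 44 to 93 in water. It shares exonic bases on its own strand with the snoRNA gene F47E1.19. That gene had only 1 read in each library, which made 0.129 to 0.168 FPKM in mannose and 0.132 to 0.165 FPKM in water. The log2 difference of linc-22 on the same scale was 0.67 with a standard error of 0.28. The limma adjusted p was 0.989 for linc-107, linc-60 and linc-83 and 0.997 for linc-22.

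A further pair of genes had nearly all of their reads in a single library. The gene linc-5 (C04C11.24; X:14018610-14019376) had 1, 60 and 2 reads in mannose against 1, 1 and 1 in water. The gene linc-40 (Y82E9BL.20; III:1325891-1327724) had 0, 0 and 1 reads in mannose against 86, 0 and 0 in water. Both share exonic bases with another model on their strand. The ncRNA gene C04C11.23, which overlaps linc-5, had 6.84 FPKM in mannose 2 and 6.59 to 12.3 FPKM in the other 5 libraries. The coding gene Y82E9BL.18, which overlaps linc-40, had 0.778 FPKM in water 1, its lowest value, and 1.39 to 1.95 FPKM in the others.

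**Figure D5:**
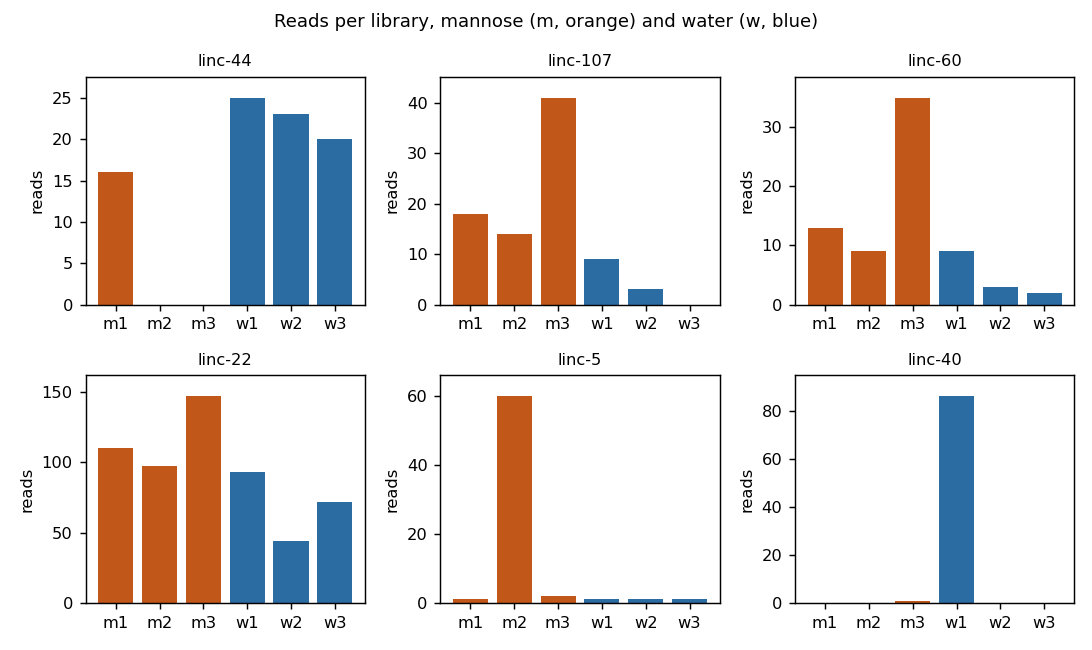
Reads (y axis, own scale in each panel) of 6 lincRNA genes in the 3 mannose libraries (m1 to m3, orange) and the 3 water libraries (w1 to w3, blue). Mannose 2 and mannose 3 have 0 reads of linc-44, linc-107 and linc-60 peak in mannose 3, and linc-5 and linc-40 have 60 and 86 reads in a single library.

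Marker genes of several tissues also varied between the libraries, and every marker gene found in the tables was detected. The 16 genes of an oocyte and germline list lay a median of 0.75 log2 units above their mean in mannose 1 and 0.65 in water 3, against −0.62 to 0.14 in the other 4 libraries. Their summed level was 3157 to 7146 FPKM in mannose and 3376 to 7852 FPKM in water. Mannose 1 and water 3 both lay above the other 4 libraries in 1 of the 18 tested lincRNA genes, beside 28.6% of all tested genes, and both lay below them in 3 of 18, beside 21.5%. Of all tested genes, 45.5% had negative log2 differences. Some lists leaned further that way, although no member passed. Lower in mannose were 27 of 28 sperm genes, all of the msp family. So were 8 of 8 tested cuticle genes and 6 of 6 tested body wall muscle genes. In the remaining lists 6 of 16 oocyte and germline genes, 5 of 8 intestine genes and 2 of 5 tested neuron genes were lower. Among members too low for the test, dpy-7 (cuticle) averaged 0.587 FPKM in mannose and 0.451 FPKM in water. The means were 0.158 and 0.0929 FPKM for unc-22 (muscle), and 0.150 and 0.237 FPKM for bli-1 (cuticle). Untested neuron genes had higher means in mannose, with 0.764 FPKM against 0.583 FPKM in water for unc-104. The same means were 0.281 and 0.123 FPKM for unc-31, and 0.696 and 0.419 FPKM for unc-13. Summed sperm genes had 984.1 to 1846 FPKM in mannose and 1619 to 2496 FPKM in water, summed cuticle genes had 13544 to 15958 FPKM in mannose and 18472 to 21231 FPKM in water, and summed muscle genes had 1655 to 2343 FPKM in mannose and 2259.7 to 2348 FPKM in water. The part of these tissues in the lincRNA values was not tested. Summed reads in units of 1e6 were 39.9 to 46.0 per library.

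Other noncoding RNAs and the machinery that degrades RNA were looked at beside the lincRNA genes, and none of their genes passed. Of the 57 anr genes, 6 were tested and 5 had negative log2 differences, the median being −0.13. Among them anr-8 had 8.97, 7.58 and 11.2 FPKM in mannose against 14.2, 10.1 and 8.71 FPKM in water. The noncoding RNA rncs-1, known as an inhibitor of the nuclease Dicer in worms, had 1.25, 1.95 and 1.67 FPKM in mannose against 3.53, 2.47 and 2.23 FPKM in water. Its groups did not overlap, and on the log2 scale the difference was −0.51, with 0.18 as standard error (limma adjusted p = 0.9999). The long noncoding RNA tts-1, known from long-lived worms, had 12.7, 15.9 and 13.9 FPKM in mannose against 15.2, 10.3 and 7.03 FPKM in water, and its groups overlapped.

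The RNA exosome trims and degrades RNA from the 3′ end, and nonsense-mediated decay removes transcripts with early stop codons. Of 10 tested exosome and nuclear surveillance genes, 4 had higher and 6 had lower levels in mannose, and the median difference was −0.043 on the log2 scale. The exosome subunit gene exos-8 had 85.8, 85.8 and 90.4 FPKM in mannose against 103.4, 98.9 and 99.3 FPKM in water, and the groups did not overlap. Of 9 nonsense-mediated decay genes, 7 had higher and 2 had lower levels in mannose, and the median was 0.22. The kinase gene smg-1 had 4.74, 2.62 and 3.08 FPKM in mannose against 1.69, 2.39 and 2.60 FPKM in water, with mannose 2 barely above water 3. Neither list had a member with an unadjusted p under 0.05.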

How the data were processed

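The submitters' processing notes name cutadapt, FastQC, HISAT2 2.1.0 and the build WBcel235. For the counting tool, its strand setting and shared reads, the sources used here give nothing. The authors deposited FPKM values, a unit worked out from the values: multiplied by gene length, they fell on whole multiples of a library-specific step, within 0.05 read, for 99.2% of the lincRNA values above 0 and 86.7% to 87.2% of all values above 0. Reads in the text are FPKM times gene length divided by that step. Because the values are not counts, limma 3.58.1 (R 4.3.3, trend and robust settings) was run on log2(FPKM + 1), a scale that understates the change of low genes, with Benjamini-Hochberg adjustment over all 11237 genes tested. The test was also tried on simulated libraries. These had the same spread setting for every gene and no shared shifts between libraries such as the oocyte genes show here. Detection and read shares were compared with exact permutation tests. Counts of overlapping spans come from the deposited gene positions and strands, for models with a value above 0. Exons and shared exonic bases come from the Ensembl annotation, gene classes from RefSeq. Named members are the 10 with the highest mean, the 8 tested with the smallest p, those called under an alternative and the 3 shortest and longest tested. The members, lists and rules were chosen with earlier results of these data known. Sequences were not used here.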

Additional observations from a re-analysis of the deposited data

How the results depend on the processing

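Low read numbers limit most members: 34 of 170 averaged at least 10 reads. The difference in detected genes per library (−0.33) was 3.33 at 10 reads or more, 0.333 after thinning to the smallest library and −3 to 2 when single libraries were left out; it had no settled direction. The difference in read share was −0.0024 to −0.00010 percentage points without single libraries. Over all genes, limma called 4 with the 0.1 FPKM filter (none a lincRNA), 0 to 2 without single libraries and 3 without mannose 1 and water 3. For lincRNA genes it called 0 to 1 without single libraries and 1 without mannose 1 and water 3, linc-44 each time. Mannose 1, the only mannose library with reads of linc-44, was left out each time that gene was called. The lincRNA median was −0.18 to −0.057 without single libraries. For 6 of the 14 named genes the sign of the log2 difference changed without single libraries, with ranges of −0.19 to 0.050 (linc-9), −0.15 to 0.0062 (linc-4), −0.15 to 0.012 (linc-8), −0.45 to 0.0053 (linc-29), −0.051 to 0.20 (linc-15) and −0.65 to 0.56 (linc-2); the other 8 kept theirs in all settings run. The cause was not tested. Deviations of libraries with the same replicate number had correlations of −0.74, 0.24 and −0.71. Those of mannose 1 with water 3 and of mannose 3 with water 1 were 0.77 and 0.71. Such a shared shift can hide a smaller pairing, so these values cannot show whether the libraries were paired. A limma fit with the replicate number as a block called no gene (0), and 164 instead of 532 had an unadjusted p under 0.05. Limma-voom on reads called 0; its unadjusted p was under 0.05 for 535 genes, 2 of the 18 lincRNA genes among them; limma-voom over genes averaging at least 10 reads, added after the data were seen, called 0.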

Other observations

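Some lincRNA genes lie in small groups on the same strand, and their values are given side by side. On chromosome IV, linc-26, linc-41 and linc-21 follow each other with gaps of 2815 and 320 bases. Against the values of linc-21 given above, linc-41 had 7, 9 and 17 reads in mannose and 25, 17 and 5 in water, and linc-26 had 0 reads in mannose and in 2 of the water libraries, with 3 reads in water 2. On chromosome III, linc-19 and linc-45 are 456 bases apart. The gene linc-19 had 15, 14 and 6 reads in mannose against 10, 14 and 16 in water, whereas linc-45 had 6, 18 and 27 reads in mannose against 13, 36 and 9 in water. On chromosome II, linc-17 and linc-68 are 703 bases apart, and linc-17 had 24, 21 and 51 reads in mannose against 33, 24 and 25 in water. The gene linc-68 had 0, 4 and 14 reads in mannose against 0, 0 and 10 in water, so it was at 0 in mannose 1, water 1 and water 2. These members were chosen for their position, as neighbours within 5000 bases, and no test was made.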
